A study of Mus musculus with 2 samples.

Results

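The non-canonical Wnt ligand gene Wnt5a was examined together with genes for its receptors and for the core planar polarity and Dishevelled proteins, in distal and proximal areas of mouse limb-mesenchymal organoids. The members were chosen by name as Wnt5a, Ror1, Ror2, Ryk, Vangl1, Vangl2, Prickle1, Prickle2, Dvl2 and Dvl3. All 10 were among the 13916 protein-coding genes of the authors' deposited table, so none counts as not detected.

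Both groups came from Slc:ICR mouse embryonic limb mesenchymal cells, cultured for 48 h in medium containing Fgf8b and Wnt3a. Both sample titles carry the name PIC26. At day 2, 5 organoids from 4 cultures were frozen, cut at 10 µm and fixed with 4% paraformaldehyde. In photo-isolation chemistry, reverse transcription is run in the section with light-sensitive primers, and cDNA is released only where ultraviolet light (here 365 nm for 3 min through a 20x objective) is shone. The distal group was 5 lit regions pooled into 1 library under separate barcodes, and the proximal group was 5 regions pooled in the same way into another.

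Wnt5a is a secreted ligand that acts through Ror and Ryk receptors and mostly without β-catenin. In the embryonic limb it is known as a distal mesenchymal signal needed for outgrowth of the skeleton. The core planar polarity proteins (Vangl and Prickle on one face of a cell, Frizzled, Dishevelled and Celsr in the same system) orient cells within a tissue, and Vangl2 is known to act downstream of Wnt5a and Ror2 in limb cartilage.

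The side of the organoid and the library are the same split, so their effects cannot be told apart. With 5 regions a side and 4 cultures, some regions of a side share a culture, and the labels do not tie regions to organoids. Every p-value below treats regions as replicates, and sharing within a side, taken alone, makes such p-values too small. Both sides may also share organoids and cultures, which the tests do not use and whose effect on the p-values was not tested. The net direction of the error is therefore not known. Region values are normalized counts, meaning a region's count divided by its size factor, a relative measure of depth. The size factors were 0.329 to 0.832 in distal and 1.502 to 2.42 in proximal, and correspond to 46991 to 118978 and 214774 to 345649 counts over the listed genes. Counts in each region were recovered from the authors' deposited values for 9 members, and for Wnt5a only a level for each side could be computed. Regions are listed below by falling size factor, which names them and gives no order. Of the 7 limb mesenchyme markers all were in the table, with means of 159 for Prrx1, 74.0 for Twist1 and 99.2 for Pdgfra in the authors' deposited table. Of these markers Msx1 (log2 change 1.12) was called for distal, and Pdgfra (-0.86) and Tbx5 (-1.41) for proximal, from the authors' deposited table at an adjusted p under 0.05. The other 4 of these markers had no such call. Surface ectoderm markers were nearly absent, with 2 distal and 6 proximal counts over 3 of 5 markers, and Krt5 and Fgf8 were not in the table. Endothelial markers held 4 distal and 8 proximal counts, or summed normalized counts of 0 to 3.58 in distal regions and 0 to 2.71 in proximal ones. The 1 blood marker in the table, Ptprc, held 1 distal and 10 proximal counts, or 0 to 1.43 and 0 to 2.48 normalized counts.

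Wnt5a and Prickle1 were the members that passed the authors' test, both higher in distal, and for Prickle1 1 distal region went the other way. The authors' deposited table gave 2 of the 10 members an adjusted p under 0.05. Over all genes of the authors' deposited table that share was 0.977% (136 genes), and 0.395% of genes (55) had such a call with the higher level in distal. No member was called with the higher level in proximal, where 0.582% of all genes (81) were called. At an unadjusted p under 0.05 the authors' deposited table held 3 members, Vangl2 being the third, all higher in distal, against 6.07% of all genes in either direction and 2.56% with the higher level in distal. The members' median log2 change of distal over proximal was 0.22, with 6 positive and 4 negative, and that of all genes was 0.07. Among the members, 5 had a mean of at least 10 normalized counts, and of all genes with such a mean 3.03% were called, 1.36% with the higher level in distal. The median log2 change of all genes with such a mean was 0.00466.

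**Figure D1:**
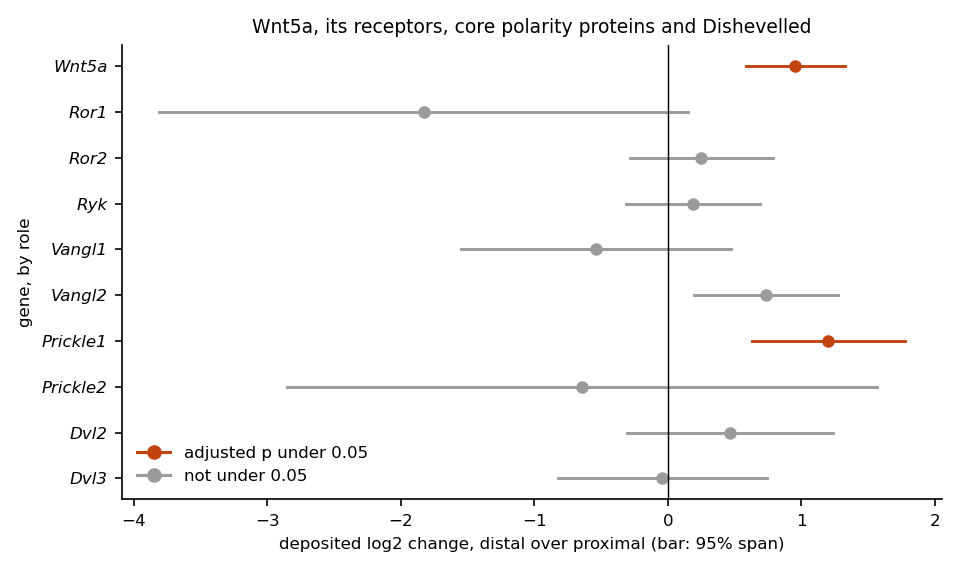
Log2 change of distal over proximal for the 10 genes, from the authors' deposited table, ordered by role (ligand, receptors, core proteins, Dishevelled). Points are the deposited changes and bars the 95% span (change plus or minus about 2 standard errors). Wnt5a (0.96) and Prickle1 (1.20) lie clear of 0 and are coloured for an adjusted p under 0.05. The bar of Vangl2, from 0.20 to 1.28, also lies clear of 0, but Vangl2 was not called. The bar of Ror1 spans from -3.81 to 0.15.

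The ligand came first. Wnt5a (ENSMUSG00000021994, GRCm38 chr14:28504750-28527448, plus strand) had a mean of 184 normalized counts over the 10 regions in the authors' deposited table. Its mean and change give a level of 242 normalized counts in distal and 125 in proximal, or about 709.7 and 1206 counts. Wnt5a was thus 1.94-fold higher in distal. The authors' deposited table lists a log2 change of 0.96 (SE 0.19) for it, with p = 5.15e-07 and 0.000137 after adjustment. Whether every distal region lay above every proximal one was not examined, since its region counts were not recovered. In lit areas of tissue, fewer cells of a type and less RNA per cell cannot be told apart. Muscle markers in sum also differed between the sides. Only Myog of the 5 was called by the authors' deposited table (log2 change -4.17, adjusted p 0.00688), for proximal. Myod1, Myf5, Pax3 and Pax7 were not called. All 5 were in the table, with 2 distal and 164 proximal counts, and their summed normalized counts ran from 0 to 1.96 in distal regions and from 6.38 to 24.0 in proximal ones. Their part in the results on these genes was not tested.

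The 3 genes nearest to Wnt5a in log2 change and log2 mean were Rpl37, Tcf7l2 and Ccnd2, at distances of 0.358, 0.378 and 0.442 over the 2 sides. By the authors' deposited table the log2 changes were 0.71 for Rpl37 (a ribosomal protein), 0.69 for Tcf7l2 (a transcription factor of the β-catenin branch) and 0.73 for Ccnd2 (cyclin D2). Each of the 3 had a smaller change and a higher mean than Wnt5a. This likeness rests on 2 values a gene from the same pair of libraries.

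**Figure D2:**
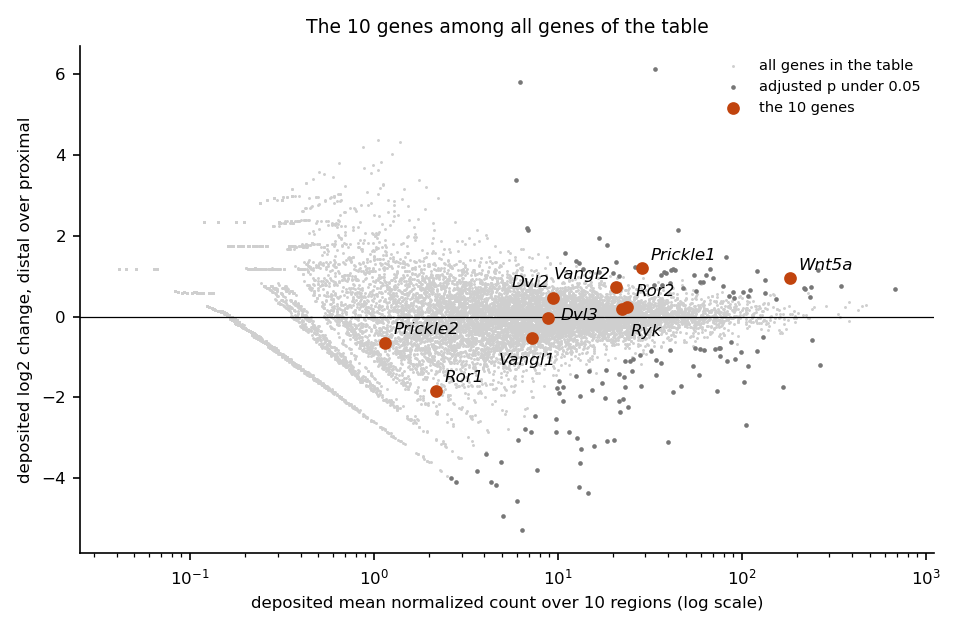
Deposited mean normalized count over the 10 regions (log scale) against deposited log2 change of distal over proximal, for all 13916 genes of the authors' deposited table. Pale points are all genes, dark points have an adjusted p under 0.05 and large points are the 10 genes. Wnt5a sits among the called genes at a mean of 184, and Ror1 and Prickle2 lie at means of 2.19 and 1.15 where changes scatter widely.

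None of the 3 receptors passed the authors' test. The p-values over regions given for them can be too small where regions of a side share cultures. Ror2 (chr13:53109312-53286124), a receptor tyrosine kinase-like protein that binds Wnt5a, had normalized counts of 25.2, 24.3, 25.1, 17.6 and 39.6 in distal regions. Its proximal values were 16.5, 18.5, 30.2, 17.9 and 24.6. The sides overlapped, and the highest value was that of the distal region with the smallest size factor. The means were 26.4 ± 8.02 in distal and 21.6 ± 5.73 in proximal (SD, n = 5 regions each, exact permutation test, two-sided p = 0.294 over 252 splits). For Ror2 the authors' deposited table lists a log2 change of 0.25 (SE 0.27, 95% span -0.28 to 0.79) and an adjusted p of 0.991.

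Ryk (chr9:102834917-102908305), an atypical Wnt receptor with an inactive kinase domain, gave 19.2 to 31.4 normalized counts in distal regions and 18.0 to 24.5 in proximal ones. The ranges overlapped, with 2 distal regions above all proximal ones. Its means were 24.0 ± 4.96 and 20.9 ± 3.24 (SD, n = 5 regions each, exact permutation test, two-sided p = 0.286). Ryk had a log2 change of 0.19 (SE 0.26, 95% span -0.31 to 0.69) by the authors' deposited table.

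Ror1 (chr4:100095791-100444765), the relative of Ror2, was barely counted in distal. Its counts were 2, 1, 0, 0 and 0 in distal regions and 9, 4, 4, 5 and 11 in proximal ones. As normalized counts these are 2.40, 1.43, 0, 0 and 0 against 3.72, 1.81, 2.04, 3.19 and 7.32, so 4 distal regions lay below all proximal ones and the deepest distal region lay among them. Over summed counts Ror1 was 3.34 times lower in distal, with an exact 95% interval of 1.05 to 17.0 that covers counting error only. The exact permutation test over regions gave a two-sided p of 0.0238, with region means of 0.767 ± 1.11 and 3.62 ± 2.22 (SD, n = 5 each). Leaving out any 1 of the 3 distal regions with no count raised it to 0.0556, an alternative chosen after the values were seen. The authors' deposited table gave Ror1 an unadjusted p of 0.0707, which became 0.991 after adjustment. Only the distal regions with the highest size factors had a count, and the part of depth in this difference was not tested. Over all distal regions together, 3 counts correspond to a level of 1.02, and over all proximal regions to 0.311.

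**Figure D3:**
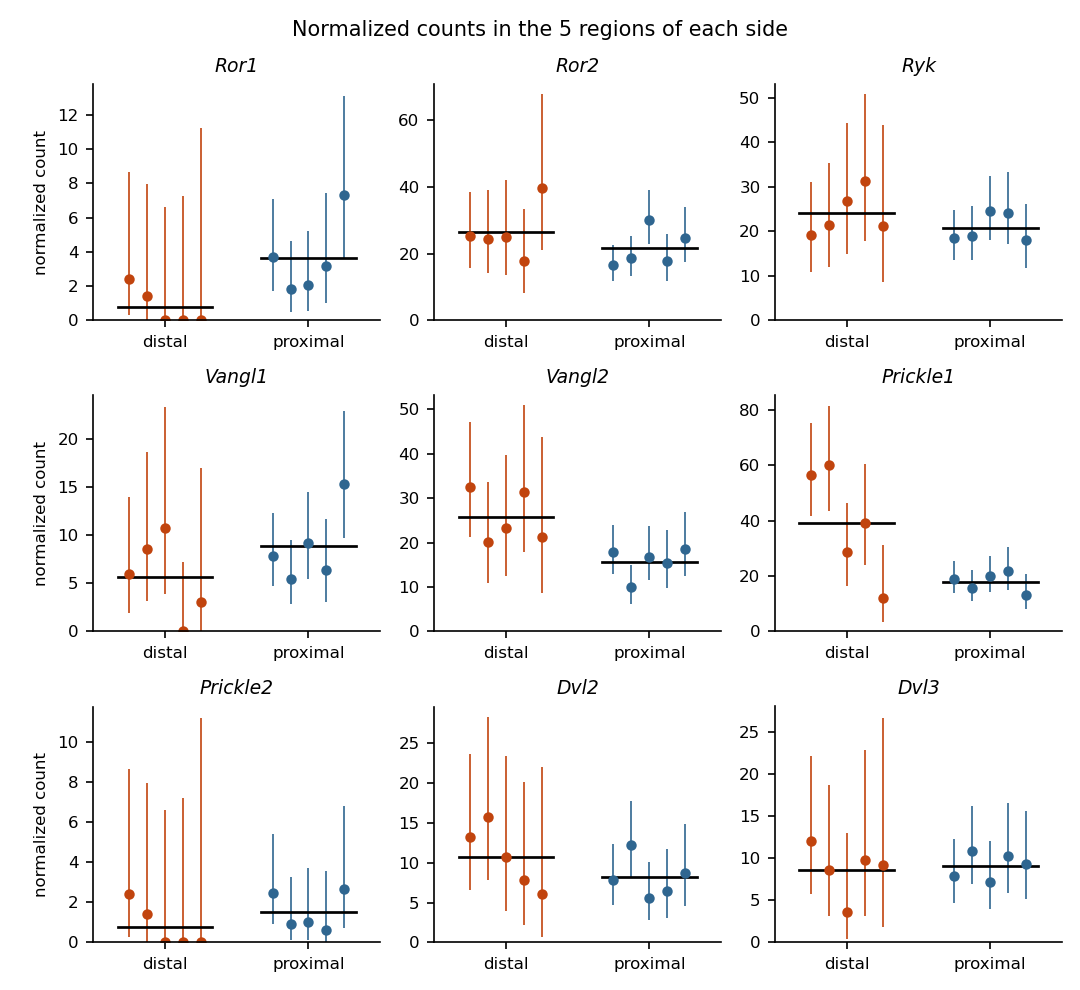
Normalized counts of the 9 members with recovered region counts, 5 regions a side, ordered by falling size factor within a side. Points are regions, bars their exact 95% Poisson intervals (counting error only) and black lines the mean of a side. Vangl2 shows no overlap (20.0 to 32.4 against 9.95 to 18.6), and Prickle1 has 4 distal points above all proximal ones and 1 below.

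Of the 4 core genes, Prickle1 was called for distal. Vangl2 was not called, though its unadjusted p was under 0.05 both in the authors' test and in the test over regions. Vangl1 and Prickle2 were under 0.05 in neither test. Prickle1 (ENSMUSG00000036158, chr15:93499114-93595891, minus strand) encodes a cytoplasmic LIM-domain protein that partners with Vangl. It is the called gene for which the RefSeq promoter table (GRCm38.p6) holds start sites, so the 250 bases before each of its 2 listed starts are shown, 5′ to 3′ on the minus strand. Capitals mark the GC box GGGCGG and its reverse complement CCGCCC, the letters of which were searched on both strands and overlap each other where they run together. The first window, chr15:93595903-93596152, lies outside the annotated gene by 11 bases. The second, chr15:93519521-93519770, lies within its span and overlaps 1 annotated exon.
Prickle1 first start: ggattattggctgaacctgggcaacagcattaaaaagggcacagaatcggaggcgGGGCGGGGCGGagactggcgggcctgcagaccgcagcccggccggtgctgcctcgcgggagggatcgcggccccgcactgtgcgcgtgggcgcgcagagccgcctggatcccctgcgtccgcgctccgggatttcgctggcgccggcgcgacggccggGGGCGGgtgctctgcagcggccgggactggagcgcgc
Prickle1 second start: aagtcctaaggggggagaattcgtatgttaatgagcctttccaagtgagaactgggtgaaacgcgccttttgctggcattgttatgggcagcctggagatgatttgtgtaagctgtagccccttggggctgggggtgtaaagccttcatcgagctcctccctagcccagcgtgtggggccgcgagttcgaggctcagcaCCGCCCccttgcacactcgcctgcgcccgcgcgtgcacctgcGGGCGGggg
The windows hold 3 and 2 matches, and their G+C shares are 74% and 60.8% against a median of 52.4% over all windows of this length. The GC box letters occur in 32.7% of the 32851 windows of the promoter table. Neither window holds CTTTGA, the core letters of a TCF/LEF motif (13.8% of all windows), or TATAAA (12.4%), on either strand. Of the 10 members 8 matched the table with 12 windows, of which 11 held a GC box, 2 held CTTTGA and 1 held TATAAA.

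Prickle1 had normalized counts of 56.5, 60.1, 28.6, 39.2 and 12.2 in distal regions and 19.0, 15.8, 19.9, 21.7 and 13.3 in proximal ones. All but one distal region exceeded every proximal region. The exception was the distal region with the smallest size factor, which lay below all proximal ones with 4 counts and an exact 95% Poisson interval of 3.32 to 31.2 normalized counts. The distal mean was 39.3 ± 19.9 and the proximal mean 18.0 ± 3.36 (SD, n = 5 regions each), a coefficient of variation of 50.5% against 18.7%. By the authors' deposited table Prickle1 was 2.30-fold higher in distal (log2 change 1.20, SE 0.29, p = 4.04e-05), and the adjusted p was 0.00686. The exact permutation test over regions gave a two-sided p of 0.0556, and without the smallest distal region it gave 0.00794, the smallest p that such a split allows. Like the p-values for the other core genes, these can be too small where regions of a side share cultures. The 2 distal regions with the highest size factors also had the highest levels of Prickle1, and the part of depth was not tested.

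Vangl2 (chr1:172000960-172028444) encodes a membrane protein at the centre of the planar polarity system. Among the 9 members with recovered region counts, only its sides did not overlap. The share of all genes without overlap was not computed. Its normalized counts were 32.4, 20.0, 23.3, 31.4 and 21.3 in distal regions and 17.8, 9.95, 16.9, 15.3 and 18.6 in proximal ones. Every distal region stood above every proximal region, although the counting intervals of single regions overlap. The distal mean was 25.7 ± 5.80 and the proximal mean 15.7 ± 3.45 (SD, n = 5 regions each, exact permutation test, two-sided p = 0.00794, the smallest that 252 splits allow). That p was 0.0238 at most when any 1 region was left out. This p is unadjusted. The authors' deposited table has Vangl2 1.67-fold higher in distal (log2 change 0.74, SE 0.28, p = 0.00733) but with an adjusted p of 0.337, so it was not called.

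Vangl1 (chr3:102153583-102204693), its paralogue, gave 0 to 10.7 normalized counts in distal regions and 5.43 to 15.3 in proximal ones. The sides overlapped, and 1 distal region had no count. The means were 5.68 ± 4.28 and 8.84 ± 3.89 (SD, n = 5 regions each, exact permutation test, two-sided p = 0.254), and the authors' deposited table lists a log2 change of -0.54 (SE 0.52). Prickle2 (chr6:92370908-92706155) had counts of 2, 1, 0, 0 and 0 in distal regions and 6, 2, 2, 1 and 4 in proximal ones. It was 1.52 times lower in distal over summed counts, with an exact 95% interval of 0.429 to 8.17, so no difference was detectable at this depth (exact permutation test over regions, two-sided p = 0.222). Whether Vangl2 differs from Vangl1, or Prickle1 from Prickle2, in its response to the side was not tested.

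The genes for the Dishevelled proteins, which carry Wnt signals from Frizzled into the cell in both branches of the pathway, did not pass the authors' test. Their p-values over regions can be too small for the same reason. Dvl2 (chr11:70000595-70012301) had 6.09 to 15.8 normalized counts in distal regions and 5.62 to 12.2 in proximal ones. Dvl3 (chr16:20516982-20534010) had 3.58 to 12.0 and 7.16 to 10.9. Both genes overlapped between the sides, Dvl2 with 2 distal regions above all proximal ones and Dvl3 with 1 above and 1 below. The means of Dvl2 were 10.7 ± 3.92 and 8.15 ± 2.57, and those of Dvl3 were 8.62 ± 3.11 and 9.08 ± 1.56 (SD, n = 5 regions each, exact permutation tests, two-sided p = 0.262 and 0.817). The log2 changes listed in the authors' deposited table were 0.47 (SE 0.39, 95% span -0.31 to 1.24) for Dvl2 and -0.04 (SE 0.40, 95% span -0.82 to 0.74) for Dvl3.

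Exons of Wnt5a and Vangl1 overlap annotated antisense genes (Gm2670 and Gm16160), and those of Dvl2 overlap Acadvl on the other strand and Mir324 on its own. The strand used in counting is not given in the sources used here, so reads of these pairs may be mixed. None of the 10 members had a near-identical copy elsewhere among annotated transcripts.

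A wider list of 35 ligands, receptors, core proteins and effectors of the same pathways was set beside the members, and 33 were in the table (Wnt11 and Fuz were not). The authors' deposited table called 4 of the 33, with 3 higher in proximal and 1 higher in distal. Over all genes 0.977% were called, 0.582% higher in proximal and 0.395% higher in distal. In the list 15 genes had a mean of at least 10, among them all of the called genes but Wnt4. Of all genes with such a mean 3.03% were called. Of all genes 7588 had a positive and 6327 a negative log2 change. Among all genes with a mean of at least 10 these numbers were 1900 and 1857. The list's median log2 change was -0.21, with 7 positive and 26 negative. It was -0.33 over 32 genes when Celsr3, at or under 3 counts on both sides, was left out. For that median Wdpcp, with no distal count, was held at the ratio given by 3 distal counts. The members' median was 0.22.

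Among ligands and modulators, Sfrp2, a secreted Frizzled-related protein, was lower in distal. It had 21 distal and 285 proximal counts, 4.81 to 10.0 normalized counts in distal regions and 15.3 to 42.5 in proximal ones, with no overlap. The authors' deposited table lists Sfrp2 with a log2 change of -2.01 (SE 0.42), with p = 0.000344 after adjustment. Its exons overlap the antisense gene Gm26771. Wnt4, a Wnt ligand of joints and other mesenchyme, had 1 distal and 66 proximal counts and was 20.0 times lower in distal (exact 95% interval 3.47 to 803, counting error only). The authors' deposited table gave it an adjusted p of 0.0220. Both genes were low on the side where muscle markers were low, and the part of other cells in this was not tested.

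Of the Frizzled receptors, Fzd2 was higher in proximal by the authors' deposited table (log2 change -0.62, SE 0.17, adjusted p 0.0348). Fzd3 had 20 distal and 76 proximal counts, with -0.19 as its log2 change from the authors' deposited table, and Fzd6 had 2 and 8 counts. Among effectors, the small GTPase gene Cdc42 was called for distal by the authors' deposited table (log2 change 0.50, SE 0.13, adjusted p 0.0190). Centred on the median of all genes, Cdc42 was no longer called. Pdzrn3, a ubiquitin ligase gene linked to planar polarity signalling, had 14 distal and 97 proximal counts. The authors' deposited table has its log2 change at -1.04 with an unadjusted p of 0.0415 that became 0.850 after adjustment, so it was not called. Its exact permutation test over regions gave a two-sided p of 0.0317, unadjusted.

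Region counts were searched for in only 16 chosen genes of the wider list, and were recovered for all of these. Other genes of the list with means in the searched range were not tried. Some of them had a negative deposited log2 change, such as Scrib, and Rhoa, Ptk7, Daam1 and Daam2 had a positive one. The share of all genes with a p under 0.05 in the exact permutation test over regions was not computed. Of the 16 chosen genes, 6 had an unadjusted two-sided p under 0.05 in this test, all lower in distal. Only Celsr1 and Celsr3 of the 16 had a positive deposited log2 change, so this shared direction follows in part from the choice of genes. They were Wnt4, Sfrp2 and Wdpcp, each at 0.00794 with no overlap between the sides, and Pdzrn3, Celsr2 and Nos1ap (exact p = 0.0397 for Nos1ap). Wdpcp and Nos1ap are named after their values were seen. Nos1ap had 2 distal and 28 proximal counts, and Wdpcp had 0 and 15. With distal set at 3 counts over the side, Wdpcp was 1.52-fold lower in distal, which leaves out the counting error of its proximal counts. Its exact interval, for counting error only, reached down to 1.09 times lower. The authors' deposited table gave Wdpcp an unadjusted p of 0.0821 and an adjusted p of 0.991. The p-values over regions of these 6 genes can also be too small where regions of a side share cultures. Only Wnt4 and Sfrp2 of the 6 were called in the authors' deposited table.

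None of the 7 other core genes was called, and all but Scrib had 10 or fewer distal counts. Celsr1, an atypical cadherin of cell junctions, had 10 distal and 24 proximal counts, and the authors' deposited table lists its log2 change as 0.52 (SE 0.71). Celsr2 had 3 distal and 34 proximal counts, or 3.44 times lower in distal with an exact 95% interval of 1.08 to 17.5 (counting error only). Of its distal regions 4 lay below all proximal ones (exact permutation test over regions, two-sided and unadjusted p = 0.0476). Celsr3 had 1 distal and 0 proximal counts, so no fold is given. Dvl1 had 8 distal and 28 proximal counts with -0.04 as the log2 change listed in the authors' deposited table, and Prickle3 had 2 and 10 counts. The authors' deposited table lists log2 changes of -0.46 (SE 0.41) for Scrib, a scaffold protein of cell polarity, and -1.29 (SE 1.14) for Ankrd6.

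**Figure D4:**
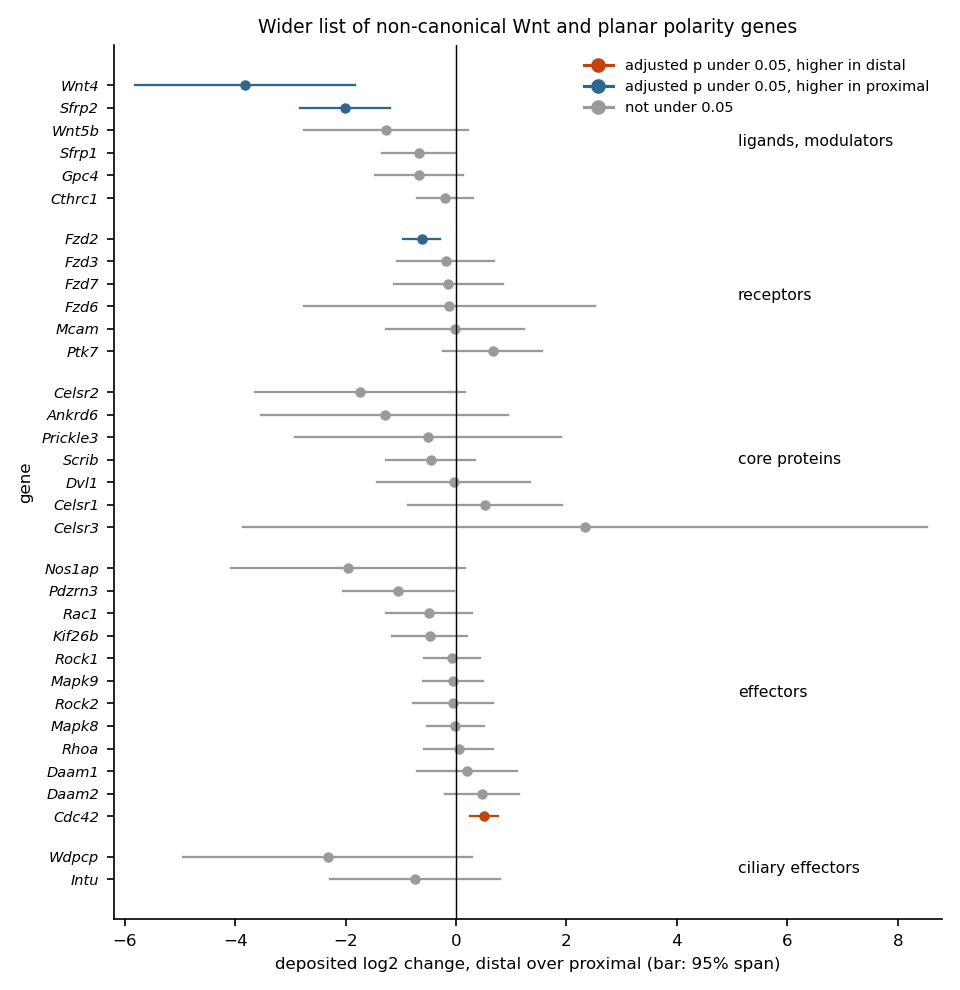
Log2 change of distal over proximal for the 33 genes of the wider list in the authors' deposited table, grouped by role. Points are deposited changes and bars the 95% span (change plus or minus about 2 standard errors), and colour marks an adjusted p under 0.05 and its direction. Wnt4, Sfrp2 and Fzd2 lie on the proximal side and Cdc42 (0.50) on the distal side.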

How the data were processed

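The series held 1 distal and 1 proximal library and 1 table of the authors' comparison. Members, gene lists and the rule for named genes (all members, called or unadjusted calls of the wider list, its Celsr genes, Dvl1, Prickle3, Fzd3 and Fzd6 at any value, and the 3 genes nearest to Wnt5a) were chosen with earlier results of these data known. Per the file headers, the authors deposited columns of a DESeq2 results table: a mean signal of normalized counts over regions, a log2 change with its standard error, a score (change over standard error), and a p-value before and after adjustment. The builds mm10 and GRCm38 are named in the submitters' processing notes. The aligner and the counting are not given in the sources used here.

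Calls use the adjusted p that the authors deposited, at under 0.05. No count model was run, since the authors deposited no count table. Size factors were read from the repeating steps of the lowest means and refined on 2710 genes, and each region's side from the size of the authors' log2 change for a gene with 1 count there (2.34 for the distal steps, 1.19 for the proximal ones). Whole counts per region were then searched that return the deposited mean, change and standard error of a gene with a mean up to 40. Of the wider list only some genes with such a mean were searched. Of 400 calibration genes, 363 had exactly 1 matching set, 0 had more and 37 had none. Tested on simulated data for distal against proximal, all 60 genes returned their true counts. These were drawn at means below those of Vangl2, Ryk, Ror2 and Prickle1, so recovery at such means was not simulated. Their dispersions also stayed below those of Ror1 and Prickle2. The simulation used the same fit and size factors as the search, so it did not test errors in either. Of the 9 members recovered, 8 had 1 matching set. Prickle1 had 2, and the set kept was the one whose rebuilt dispersion also matched (members within 0.0742%). Levels of Wnt5a come from its mean and change, and for the 7 members with a mean above 5 that computation was off by at most 4.35%. Region values were compared with two-sided exact permutation tests over 252 splits, unadjusted. Intervals are exact, at the 95% level, and cover counting error only. Coordinates are from GENCODE M21 (GRCm38), copies were searched with BLAST 2.17.0 (200 bases of the last 300 at 95% identity), and promoters are RefSeq's. Alternatives were other thresholds, adjustments, centrings, ratios and left-out regions. Computation used Python 3.11.15, numpy 2.4.6, scipy 1.17.1 and pandas 2.3.3. The result of 1 marker list is not reported here.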

Additional observations from a re-analysis of the deposited data

How the results depend on the processing

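The calls of Wnt5a and Prickle1 held at an adjusted p threshold of 0.01, under 3 other adjustments and under both centrings. Before adjustment, the authors' test had Wnt5a, Prickle1 and Vangl2 under 0.05. The exact permutation test over regions, also unadjusted, had Vangl2 and Ror1 under 0.05, with Prickle1 at 0.0556, and Wnt5a could not be tested. The share of all genes under 0.05 in the permutation test was not computed. Left-out regions (chosen after seeing the data) moved the p of Prickle1 between 0.00794 and 0.103, of Ror1 between 0.0238 and 0.0556 and of Vangl2 between 0.00794 and 0.0238. On the wider list the 0.01 threshold left 1 call, Sfrp2, adjusting over means of 10 or more left 3, without Wnt4, and centring on all genes left 3, without Cdc42. Left-out regions gave log2 ratios of -3.34 to -1.81 for Ror1 and -2.11 to -0.69 for Prickle2, both lowest without the deepest distal region. They gave 0.93 to 1.36 for Prickle1 and 0.58 to 0.79 for Vangl2. Dvl3, which was not called, ran from -0.22 to 0.12. No paired analysis was possible because each side is 1 library and its regions could not be matched to the numbers in the labels. Depth limits the distal side most, with size factors that sum to 2.93 against 9.65.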
